A study of Mus musculus with 4 samples.

Results

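The 8 genes Il2ra, Il2rb, Il2rg, Il7r, Il21r, Il18r1, Il18rap and Il10ra encode cytokine receptor chains, and they were followed by name, out of 32285 genes in the count matrices, across the states of donor T cells (Tc). The data were single-cell RNA-Seq of Tc taken on day 23 from the spleens of lethally irradiated BALB/c mice that carried the AML line WEHI-3B (10000 cells) and had received allogeneic C57BL/6 BM and, on day 2, 200000 donor Tc. The 4 libraries came from 1 mouse each: 2 recipients of Havcr2fl/fl;E8icre/+ cells, in which the TIM-3 gene Havcr2 is floxed and Cre is driven by E8i, an element active in CD8+ Tc, and 2 recipients of Havcr2fl/fl cells, which carry the floxed alleles without Cre. BM and Tc of a recipient had the same genotype, and the study used this comparison to ask what loss of TIM-3 in CD8+ Tc does to donor Tc. Below, values per library are UMIs of a gene per 1e6 UMIs of all genes (CPM), summed over the cells of a library and are given in the order Havcr2fl/fl;E8icre/+ replicates 1 and 2, then Havcr2fl/fl replicates 1 and 2.

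IL-2, IL-7 and IL-21 signal through receptors that share the common gamma chain, encoded by Il2rg. Il2ra encodes the alpha chain (CD25) that turns the IL-2 receptor into its high-affinity form, Il2rb the beta chain (CD122) shared by the receptors for IL-2 and IL-15, Il7r the IL-7 receptor alpha chain (CD127) that long-lived Tc use for survival, and Il21r the private chain of the IL-21 receptor. Il18r1 encodes the chain that binds IL-18 and Il18rap the accessory chain needed to signal, a pair from the IL-1 receptor family, while Il10ra encodes the ligand-binding chain of the IL-10 receptor, which belongs to a different family and answers an inhibitory cytokine. The gamma chain receptors act through JAK1, JAK3 and STAT5 or STAT3, whereas the IL-18 receptor acts through MyD88 and IRAK kinases. In textbook Tc biology, CD25 is high on regulatory T cells (Treg) and freshly activated Tc, CD127 is high on naive and memory Tc, and CD122 is high on effector and memory CD8+ Tc.

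The 4 matrices held 17693991 to 55045903 UMIs, and 11507 cells were kept, of which 6810 were in T cell clusters; 4280 had transcripts of Cd8a or Cd8b1 and not of Cd4 (CD8+ Tc) and 1766 the reverse (CD4+ Tc). The libraries differed in depth, with a median of 4762, 6168.5, 6974.5 and 3028 UMIs per CD8+ Tc, and 17 barcodes that passed the filter occurred in more than 1 library. Havcr2 was read in every library, at 61.2, 7.86, 54.8 and 114 CPM in CD8+ Tc, and the difference between the labels did not pass the test (log2 fold change -1.35, SE 0.65, edgeR adjusted p = 0.99993). The 3′ tag of this assay can lie outside the deleted part, which was not tested, so this value does not check the labels. The Havcr2fl/fl;E8icre/+ libraries stood apart from each other (61.2 and 7.86 CPM), and replicate 1 lay above Havcr2fl/fl replicate 1 (54.8 CPM). All libraries are named by their labels throughout. Of the 8 genes, Il2rb had the most UMIs in T cells (22673, in 5530 cells) and Il2ra the fewest (1151, in 546 cells). In the erythroid cells that the spleens also held, which should lack these receptors, each gene stood at a mean of 0.422 to 15.2 CPM, and after each cell was thinned to 2000 UMIs 0.16% to 0.86% of the erythroid cells had a UMI of a given gene.

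The first clustering, of all cells, separated T cells and erythroid cells and could use the 8 genes and a list of 46 related genes. CD8+ and CD4+ Tc were then clustered with these genes left out of the variable genes, so that their clusters did not rest on them. In CD8+ Tc this gave a T_PEX-like cluster (566 cells, 5 of 6 precursor exhausted markers raised, Tcf7, Slamf6 and Id3 among them), a short-term effector-like cluster (441 cells, with Klrg1, Cx3cr1 and Zeb2), an effector-like cluster (415 cells, with Gzmk, Gzmb and Prf1) and 3 cycling-like clusters of 382, 352 and 189 cells. CD8+ cluster 0 (1133 cells, led by Ckb, Klrb1b and Itga1) and cluster 1 (726 cells) were left unnamed. Cluster 1 raised 6 of 8 T_TEX markers (Eomes, Nr4a2, Entpd1, Rgs16, Pdcd1 and Lag3), but none of them was among its 10 leading genes, which included the short-term effector marker Gzma. CD4+ Tc fell into a precursor memory-like cluster (1120 cells), a cytotoxic-like cluster (255), a cycling-like cluster (150), an unnamed cluster 3 (113 cells, led by Ifitm1 and Ifitm2 and with Klrk1, Ly6c2 and Ccr2) and a Treg-like cluster (109 cells, 7 of 7 markers). Of the 109 Treg-like cells 88 had a Foxp3 UMI (80.7%), and their libraries were unequal, with 35, 53, 4 and 17 cells. Levels in the 13 clusters of at least 50 cells are given as mean ± SD over the 4 libraries (n = 4), as a description without a test. Since each library counts UMIs of 3′ tags, levels are compared between clusters for 1 gene and not between genes.

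**Figure D1:**
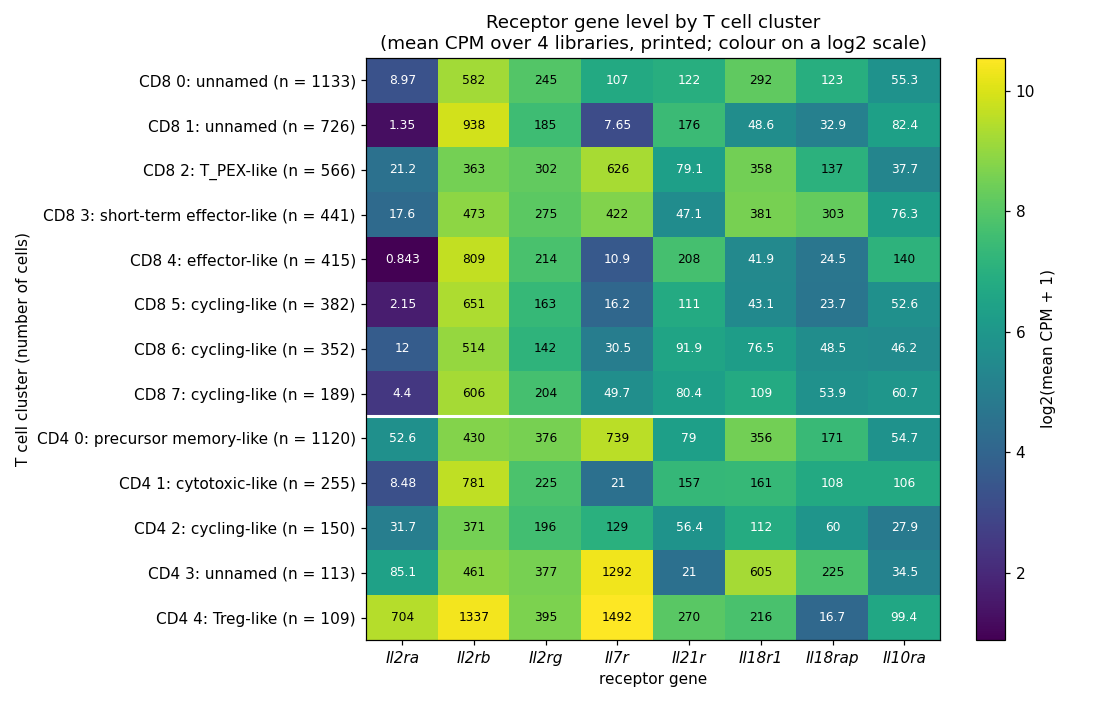
Mean level of each receptor gene (columns, CPM over 4 libraries, printed in each cell and coloured as log2 of the mean CPM + 1) in the 13 T cell clusters of at least 50 cells (rows, number of cells in parentheses). Il2ra stood at 704 CPM in the Treg-like cluster and at 85.1 CPM or less elsewhere, and Il7r ran from 7.65 CPM in CD8+ cluster 1 to 1492 CPM in the Treg-like cluster.

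Among the IL-2 receptor chains, Il2ra (ENSMUSG00000026770, chr2:11642807-11693193, plus strand) was concentrated in the Treg-like cluster, at 704 ± 428 CPM, above the next cluster in every library. Coordinates of all genes are from the GENCODE annotation on GRCm38.p6, the mm10 build. CD4+ cluster 3 followed at 85.1 ± 19.6 CPM, then the precursor memory-like cluster at 52.6 ± 23.5 and cycling-like CD4+ Tc at 31.7 ± 21.3, and neighbours among these overlapped between libraries. CD8+ Tc were low throughout, with 21.2 ± 8.75 CPM in the T_PEX-like cluster and 17.6 ± 8.09 in the short-term effector-like cluster against 1.36 ± 1.02 in cluster 1 and 0.843 ± 1.69 in effector-like cells, the last resting on 1 UMI in 415 cells. Il2rb (ENSMUSG00000068227, chr15:78479256-78495271, minus strand) had a different order. Treg-like cells had the highest mean, 1337 ± 412 CPM, but did not separate from CD8+ cluster 1 (938 ± 156). Effector-like CD8+ Tc (809 ± 239) and cytotoxic-like CD4+ Tc (781 ± 85.1) came next. T_PEX-like cells had the lowest mean (363 ± 66.5) and did not separate from cycling-like CD4+ Tc (371 ± 68.1). The common chain Il2rg (ENSMUSG00000031304, chrX:101264378-101268255, minus strand) varied least, from 142 ± 10.5 CPM in a cycling-like CD8+ cluster to 395 ± 134 in the Treg-like cluster, and the top 3 places, all CD4+ clusters, did not separate from each other. The lowest of these, precursor memory-like CD4+ Tc at 376 ± 22.0 CPM, was above T_PEX-like CD8+ Tc (302 ± 26.8) in every library.

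Il7r (ENSMUSG00000003882, chr15:9505788-9530176, minus strand) separated the clusters more widely than any other of the 8 genes except Il2ra. It was highest in Treg-like cells (1492 ± 715 CPM) and CD4+ cluster 3 (1292 ± 306), which did not separate, and then fell in steps that held in every library to precursor memory-like CD4+ Tc (739 ± 202), T_PEX-like CD8+ Tc (626 ± 154), short-term effector-like CD8+ Tc (422 ± 217) and cycling-like CD4+ Tc (129 ± 48.5). Cytotoxic-like CD4+ Tc (21.03 ± 22.2 CPM), effector-like CD8+ Tc (10.9 ± 5.36) and CD8+ cluster 1 (7.65 ± 7.51) stood at the other end. In the Treg-like cluster the per-library Il7r levels were 1381, 1015, 2534 and 1036 CPM, where the highest came from the library with 4 such cells. Il21r (ENSMUSG00000030745, chr7:125603429-125633570, plus strand) ran nearly the other way in CD8+ Tc, with 208 ± 21.7 CPM in effector-like cells and 176 ± 32.2 in cluster 1 against 79.1 ± 11.6 in the T_PEX-like cluster and 47.1 ± 15.7 in the short-term effector-like cluster. Its highest mean was in Treg-like cells (270 ± 162 CPM), which did not separate from effector-like CD8+ Tc, and its lowest in CD4+ cluster 3 (20.95 ± 7.85).

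The IL-18 receptor genes shared much of their order. Il18r1 was highest in CD4+ cluster 3 (605 ± 143 CPM, above the next cluster in every library), followed by the short-term effector-like cluster (381 ± 100), the T_PEX-like cluster (358 ± 79.1) and precursor memory-like CD4+ Tc (356 ± 119), which did not separate. Effector-like CD8+ Tc (41.9 ± 51.8 CPM), a cycling-like CD8+ cluster (43.1 ± 29.6) and cluster 1 (48.6 ± 44.3) were the lowest and did not separate. Il18rap was highest in short-term effector-like CD8+ Tc (303 ± 74.3 CPM, above the next in every library), then in CD4+ cluster 3 (225 ± 33.7), precursor memory-like CD4+ Tc (171 ± 40.2) and T_PEX-like CD8+ Tc (137 ± 63.1). The pair parted in Treg-like cells, where Il18r1 stood at 216 ± 137 CPM and Il18rap at 16.7 ± 15.0, its lowest level of the 13 clusters. Over the 13 clusters the log2 levels of Il18r1 and Il18rap correlated with r = 0.802, those of Il7r and Il18r1 with r = 0.876, and those of Il2rb and Il18rap with r = -0.690. These are descriptions over clusters that share libraries. Il10ra (ENSMUSG00000032089, chr9:45253837-45269149, minus strand) was highest in effector-like CD8+ Tc (140 ± 66.7 CPM), which stood above cytotoxic-like CD4+ Tc (106 ± 53.8) in every library, and low in T_PEX-like cells (37.7 ± 3.09) and cycling-like CD4+ Tc (27.9 ± 11.7).

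The 2 IL-18 receptor genes also lie side by side on the plus strand of chromosome 1. In the annotation Il18r1 (ENSMUSG00000026070) spans chr1:40465552-40500854 and Il18rap (ENSMUSG00000026068) spans chr1:40515362-40551705, with 14507 bases between them, so the 250 bases before each start are shown for comparison. Both are RefSeq sequences in GRCm38.p6, read 5′ to 3′ on the plus strand, for chr1:40465302-40465551 and chr1:40515112-40515361, and neither held a match to the motifs searched, so no letter is in capitals.
Il18r1, start 1: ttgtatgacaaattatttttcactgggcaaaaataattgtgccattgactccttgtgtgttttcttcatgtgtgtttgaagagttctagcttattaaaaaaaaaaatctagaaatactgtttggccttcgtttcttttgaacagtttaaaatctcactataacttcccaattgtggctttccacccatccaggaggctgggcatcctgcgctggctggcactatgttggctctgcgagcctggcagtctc
Il18rap: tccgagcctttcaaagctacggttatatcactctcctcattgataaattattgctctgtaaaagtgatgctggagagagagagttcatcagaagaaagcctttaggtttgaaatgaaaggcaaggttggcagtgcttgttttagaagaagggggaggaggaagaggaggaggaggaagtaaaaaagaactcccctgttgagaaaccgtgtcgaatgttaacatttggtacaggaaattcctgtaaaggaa
The 3 motifs below were searched on both strands in the 250-base windows of the 6 genes with an entry (8 windows, as Il18r1 has 3 starts): the STAT motif TTCNNNGAA, the RUNX motif TGTGGTT and the TCF motif CTTTGAT, of which the STAT letters read the same on both strands. STAT letters were found in the Il7r window and in that of start 3 of Il18r1. Both windows belong to starts inside the gene spans given above, so these letters lie within the genes as annotated and before 1 of their starts. The other 6 windows held no STAT match, and no window held the RUNX or TCF letters. Of 32851 promoter windows of the same length, 7.02% held the STAT letters, 4.396% the RUNX and 3.205% the TCF letters. The STAT matches are given in capitals with 10 bases on each side, as descriptions of sequence only.
Il7r, minus strand, chr15:9530000-9530028: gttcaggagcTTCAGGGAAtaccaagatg
Il18r1, start 3, chr1:40465777-40465805: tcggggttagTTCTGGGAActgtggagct
Il18r1, start 3, chr1:40465844-40465872: agtacaggtcTTCCCAGAActgaaagctt
The first match begins 142 bases before the internal Il7r start, and the other 2 begin 219 and 152 bases before start 3 of Il18r1.

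Genes whose log2 levels over the 13 clusters were most like each receptor gene were listed with Pearson's r, as a description over clusters that share the same 4 libraries. They were Capg (0.956, itself one of the Treg markers used to name clusters), Ier5 (0.922) and Gna13 (0.921) for Il2ra, and Ifi35 (0.947), Rps6ka1 (0.943) and Irak1 (0.931) for Il2rb. Faah (0.958), Fth1 (0.956) and Ago2 (0.950) were nearest to Il2rg, and Ssh2 (0.967), Uhrf1bp1l (0.951) and Mbp (0.935) to Il7r. Il21r was followed most closely by Litaf (0.941), Tnfrsf1b (0.939) and Jak3 (0.935), the kinase bound by the common gamma chain. Mbp (0.933), Tsc22d3 (0.915) and Elk4 (0.912) were most like Il18r1, Shoc2 (0.915), Cd44 (0.908) and Arhgap26 (0.905) most like Il18rap, and Gnptg (0.953), Man2b1 (0.941) and Ostm1 (0.933) most like Il10ra.

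To compare states with a test, cells were split by a single gene that is not one of the 8, counts were summed per library, and a higher sum can come from more cells with the transcript or from more RNA per cell, which these sums do not tell apart. For each split, edgeR's quasi-likelihood test was fitted over all genes with the library as a block. CD4+ Tc with a Foxp3 UMI differed most sharply from the other CD4+ Tc in Il2ra. Foxp3 encodes the transcription factor that defines Treg. The 113 Foxp3+ cells came to 33, 57, 6 and 17 per library, and Havcr2fl/fl replicate 1, with 6 cells, is shown but was not in the fit. Il2ra reached 472, 377, 911 and 395 CPM in Foxp3+ CD4+ Tc against 53.9, 33.7, 34.1 and 46.6 in Foxp3- CD4+ Tc, groups that did not overlap. The fitted level was 8.85 times as high (log2 fold change 3.15, SE 0.19, edgeR adjusted p = 1.3e-12). At 2000 UMIs per cell, Il2ra was found in 55.6 ± 9.38% of Foxp3+ and 7.37 ± 1.15% of Foxp3- CD4+ Tc (n = 4 libraries), against 0.164% of erythroid cells. Without thinning, 65 of 113 Foxp3+ cells (57.5%, Wilson 95% interval 48.3% to 66.2%) and 208 of 1653 Foxp3- cells (12.6%, 11.1% to 14.3%) had an Il2ra UMI, at median depths of 4127 and 4548 UMIs. These intervals cover counting error only.

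**Figure D2:**
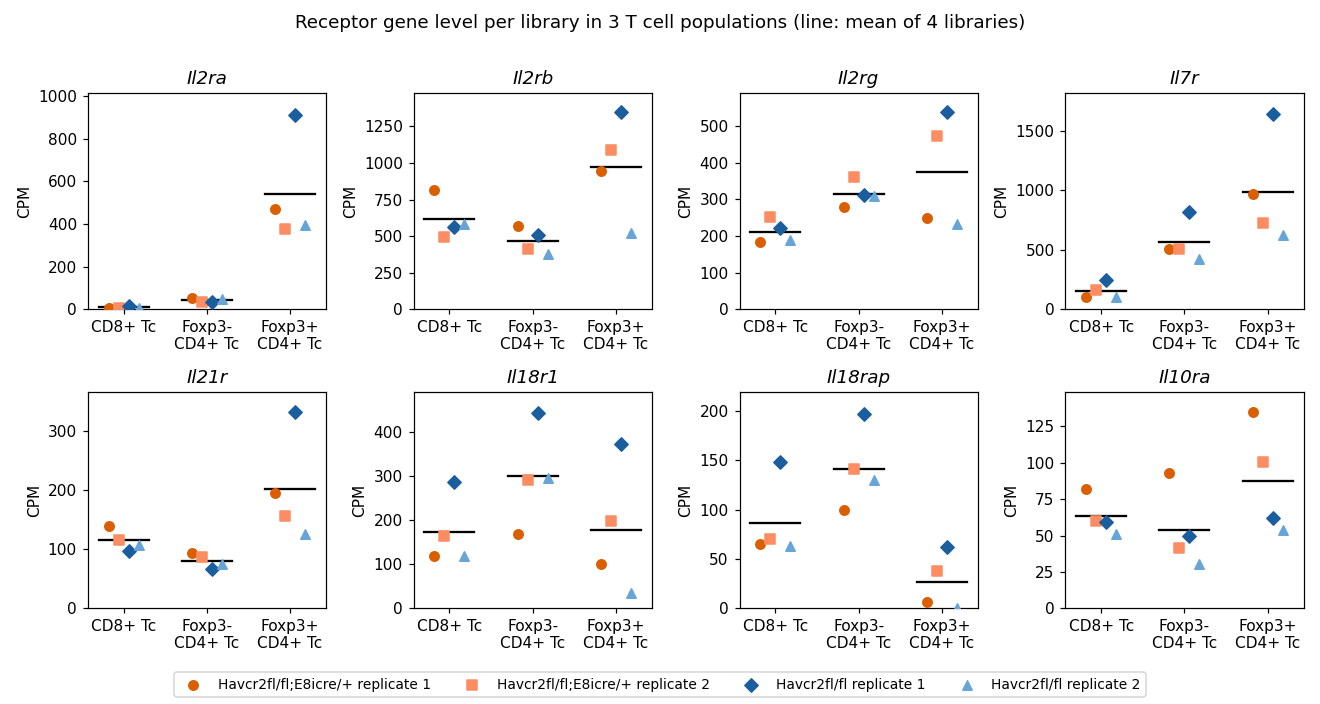
Level of each receptor gene (y axis, CPM, linear from 0) in CD8+ Tc, Foxp3- CD4+ Tc and Foxp3+ CD4+ Tc (x axis), 1 point per library, with a line at the mean of the 4 libraries. Il2ra in Foxp3+ CD4+ Tc ran from 377 to 911 CPM, above every other point of its panel, whereas Il18rap there ran from 0 to 62.1 CPM, below every Foxp3- CD4+ point.

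Of the 8 genes, 4 rose and 2 fell in Foxp3+ CD4+ Tc, where 6.78% of the 7666 genes tested passed in either direction, 3.13% higher and 3.65% lower. Il2rb rose 1.73 times (log2 fold change 0.79, SE 0.19, adjusted p = 0.0071), with 944, 1091, 1346 and 520 CPM against 570, 413, 509 and 376, higher in each library with overlap between them. Il21r rose by a similar factor of 1.73 (SE of the log2 value 0.21, adjusted p = 0.019), at 195, 156, 331 and 126 CPM against 93.8, 87.2, 66.02 and 74.98, without overlap. Il10ra passed narrowly (log2 fold change 0.83, SE 0.26, adjusted p = 0.0496) with 135, 100, 62.1 and 53.8 CPM against 92.7, 41.3, 49.3 and 30.4, values that overlapped, and this call was lost under 8 of 12 other settings. Without Havcr2fl/fl;E8icre/+ replicate 2 the calls of Il2rb (0.50), Il21r (0.87) and Il10ra (0.49) were lost, and without Havcr2fl/fl;E8icre/+ replicate 1 those of Il21r (0.70) and Il10ra (1.10), values as log2 fold changes. Both IL-18 receptor genes were lower. Foxp3+ cells held 0 to 13 UMIs of Il18rap and 2 to 67 of Il18r1 per library. Il18rap, the accessory chain, was at 6.74, 38.3, 62.1 and 0 CPM against 99.2, 141, 197 and 130, 5.60 times lower (log2 fold change -2.49, SE 0.36, adjusted p = 1.8e-05), and the groups did not overlap. Il18r1 was at 101, 197, 373 and 35.9 CPM against 167, 291, 441 and 295, lower within each library and 1.97 times lower in the fit (log2 fold change -0.98, SE 0.24, adjusted p = 0.0081). The Il18r1 call was lost with DESeq2 (-1.17) and without the library block (-0.95).

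Il7r, which conventional accounts place low on Treg, was read at high levels in these Foxp3+ cells. Its level was 964, 725, 1636 and 628 CPM in Foxp3+ against 505, 507, 818 and 420 in Foxp3- CD4+ Tc, higher within all 4 libraries, with a fitted log2 fold change of 0.55 that missed the threshold (SE 0.17, adjusted p = 0.052). It passed under 5 alternatives, at 0.56 with DESeq2 size factors, 0.58 with all 4 libraries and 0.63 each with doublets kept, with the strict cell filter and without Havcr2fl/fl replicate 2. A UMI of Il7r was present in 89 of 113 Foxp3+ cells (78.8%) and in 976 of 1653 Foxp3- cells (59.0%), and 57 of the 113 Foxp3+ cells had both Il2ra and Il7r. Il2rg did not pass (log2 fold change -0.07, SE 0.19, adjusted p = 0.929), with 2 libraries higher and 2 lower. Markers of other cell types were looked at in the same cells. The NK markers were all at 0 in Foxp3+ CD4+ Tc, but the summed B cell markers were at 520 to 728 CPM against 82.7 to 145 in Foxp3- CD4+ Tc. That sum was carried by Ighm (715, 501, 580 and 484 CPM, in 83 of 113 cells), while the defining B cell marker Ms4a1 was at 0 in both groups. Erythroid markers summed to 108 to 31973 CPM in Foxp3+ and 223 to 6168 CPM in Foxp3- CD4+ Tc, and the part of these RNAs in the results was not tested. In CD8+ Tc 22 cells had a Foxp3 UMI, of which 5 had Il2ra and 7 had Il7r, too few for a test.

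CD8+ Tc as a whole had far less Il2ra and Il7r than CD4+ Tc. Il2ra was at 5.60, 7.72, 14.1 and 6.399 CPM in CD8+ Tc and at 74.9, 63.8, 62.5 and 65.2 in CD4+ Tc, 8.18 times lower (log2 fold change -3.03, SE 0.19, adjusted p = 5.2e-08), and Il7r at 104, 159, 245 and 105 against 528, 526, 844 and 432 CPM, 3.76 times lower (log2 fold change -1.91, SE 0.087, adjusted p = 4.1e-09). In both genes all 4 CD8+ values lay below all 4 CD4+ values. Foxp3+ cells are part of the CD4+ Tc here and held 264 of their 629 Il2ra UMIs. The mean of Il2ra was 42.05 CPM in Foxp3- CD4+ Tc and 8.45 CPM in CD8+ Tc. Il2rg (183, 250, 223 and 189 against 278, 369, 319 and 306 CPM) was also separate, and 1.45 times lower (SE of the log2 value 0.056, adjusted p = 9.4e-06). Il18r1, at 118, 163, 287 and 119 against 164, 283, 439 and 281 CPM, was 1.63 times lower (SE 0.095 on the log2 scale, adjusted p = 9.4e-05), and Il18rap 1.54 times lower (SE 0.093 on the log2 scale, adjusted p = 0.00023). The IL-18 receptor genes were lower in CD8+ Tc within each library, while the CD8+ value of Havcr2fl/fl replicate 1, the highest library in both lineages, lay above the CD4+ values of other libraries. In the other direction, Il2rb (815, 497, 564 and 581 against 589, 473, 536 and 384 CPM) rose 1.28 times (adjusted p = 0.0050) and Il21r (139, 116, 97.5 and 107 against 98.9, 93.2, 74.6 and 77.7 CPM) rose 1.38 times (adjusted p = 0.00016), each higher in all 4 libraries and overlapping between them. Thus 7 of 8 genes passed, 2 higher and 5 lower, where 24.7% of 10895 genes passed in either direction, 12.3% higher and 12.4% lower. Il10ra, at 82.1, 59.9, 59.3 and 51.2 against 94.9, 46.5, 49.8 and 31.6 CPM, did not pass (log2 fold change 0.23, adjusted p = 0.154), but passed with no filter on low counts (0.27) and without Havcr2fl/fl;E8icre/+ replicate 1 (0.46). Gamma delta T cell markers summed to 102 to 195 CPM in CD8+ Tc and 7.45 to 32.6 CPM in CD4+ Tc, and their part was not tested.

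Within CD8+ Tc, cells with a UMI of Tcf7, which encodes TCF-1, the factor that marks precursor exhausted and memory Tc, were compared with the rest (205, 241, 75 and 107 Tcf7+ cells). Il7r showed the widest gap, at 502, 429, 720 and 466 CPM in Tcf7+ against 47.7, 58.0, 163 and 70.8 in Tcf7- CD8+ Tc, 7.06 times higher without overlap (log2 fold change 2.82, SE 0.14, adjusted p = 9.8e-11). Il18r1 rose 2.24 times (log2 fold change 1.16, SE 0.13, adjusted p = 4.7e-06), from 92.7, 133, 268 and 103 CPM to 295, 246, 395 and 285, higher within every library, while its highest Tcf7- value lay above its lowest Tcf7+ value. Il18rap did not pass (log2 fold change 0.44, adjusted p = 0.060), being higher in 3 libraries and lower in Havcr2fl/fl;E8icre/+ replicate 2 (65.2 against 72.1 CPM). Il2rg rose 1.24 times (adjusted p = 0.016). Il2rb fell in Tcf7+ cells, to 439, 285, 347 and 325 CPM from 869, 575, 601 and 606, without overlap (log2 fold change -0.89, SE 0.079, adjusted p = 2.3e-07). Il21r (84.4, 90.5, 53.0 and 61.2 against 147, 125, 105 and 112 CPM, adjusted p = 0.00020) and Il10ra (43.1, 51.2, 44.5 and 32.9 against 87.7, 63.2, 61.8 and 52.9 CPM, adjusted p = 0.0082) were also lower without overlap. Il2ra, at 2 to 17 UMIs per library in Tcf7+ cells, did not pass (adjusted p = 0.630). So 3 genes rose and 3 fell, where 14.9% of 10256 genes passed, 7.68% higher and 7.22% lower. With cells thinned to 2000 UMIs the calls of Il2rg (log2 fold change 0.25) and Il10ra (-0.46) were lost, while those of Il7r, Il18r1, Il2rb and Il21r were kept. Without Havcr2fl/fl;E8icre/+ replicate 1 the calls of Il2rg (0.26) and Il10ra (-0.38) were lost, while Il18rap passed under 5 alternatives, at 0.39 with no filter on low counts, 0.47 with donor-tagged cells only, 0.48 with doublets kept, 0.50 with the strict cell filter and 0.68 without Havcr2fl/fl;E8icre/+ replicate 2. Erythroid markers summed to 214 to 6194 CPM in Tcf7+ and 2815 to 6215 CPM in Tcf7- cells, and their part was not tested.

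**Figure D3:**
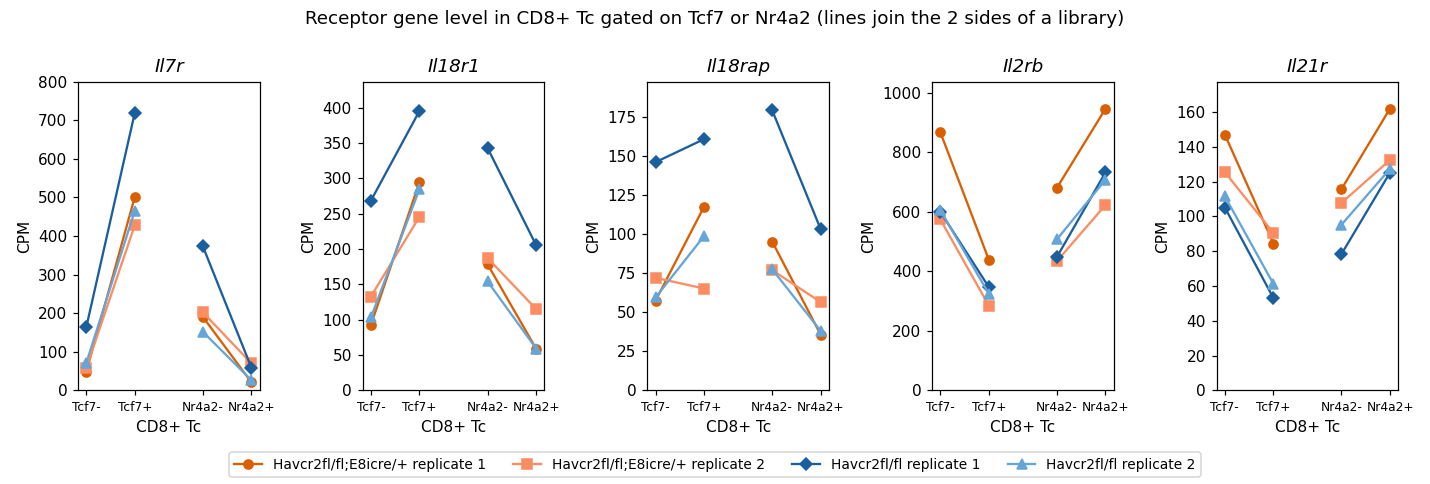
Level (y axis, CPM, linear from 0) of 5 receptor genes in CD8+ Tc without and with a UMI of Tcf7 or of Nr4a2 (x axis), 1 colour and symbol per library, with lines joining the sides of a library. Il7r went from 47.7 to 163 CPM in Tcf7- cells to 429 to 720 CPM in Tcf7+ cells, and from 152 to 373 CPM in Nr4a2- cells to 20.8 to 70.1 CPM in Nr4a2+ cells.

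CD8+ Tc were also split by Nr4a2, a nuclear receptor linked to exhaustion. This comparison uses the same cells as that by Tcf7, so the values of both are set side by side only. In Nr4a2+ cells (644, 281, 166 and 432 cells) Il7r fell to 20.8, 70.1, 58.6 and 26.3 CPM from 191, 202, 373 and 152, 5.35 times lower and without overlap (log2 fold change -2.42, SE 0.16, adjusted p = 8.5e-09). Il18r1 (58.9, 115, 205 and 59.2 against 178, 187, 343 and 154 CPM) fell 2.09 times (SE 0.11 on the log2 scale, adjusted p = 2.4e-06) and Il18rap (35.5, 56.5, 103 and 37.996 against 95.3, 76.9, 179 and 77.6 CPM) fell 1.89 times (SE 0.12 on the log2 scale, adjusted p = 1.7e-05), both in every library. Il2ra, at 2.65, 6.37, 6.17 and 4.47 against 8.64, 8.39, 19.5 and 7.53 CPM, fell 2.20 times without overlap (SE 0.26 on the log2 scale, adjusted p = 0.0060), and Il2rg fell 1.25 times (adjusted p = 0.00098). Il2rb rose 1.47 times, to 946, 623, 732 and 707 CPM from 680, 434, 448 and 507, higher in each library with overlap between them (log2 fold change 0.55, SE 0.054, adjusted p = 7.8e-07), and Il21r rose 1.38 times without overlap (162, 133, 125 and 127 against 116, 108, 78.4 and 95.3 CPM, adjusted p = 0.00024). Il10ra did not pass (adjusted p = 0.167). Altogether 2 genes rose and 5 fell, where 13.9% of 10197 genes passed, 6.94% higher and 7.0% lower. The Il2ra call was lost without Havcr2fl/fl replicate 1 (log2 fold change -0.97). Nr4a2+ cells were deeper in each library, with medians of 6032.5, 6876, 8814.5 and 3356.5 UMIs against 4045, 5851, 6373 and 2831. With cells thinned to 2000 UMIs the Il2rg call was lost (log2 fold change -0.32), while those of Il7r, Il18r1, Il18rap, Il2rb and Il21r were kept. Erythroid markers summed to 3220 to 9798 CPM in Nr4a2+ and 1845 to 4299 CPM in Nr4a2- cells, and the part of these in the results was not tested.

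Cx3cr1, a chemokine receptor of short-term effector Tc, marked 183, 137, 113 and 144 CD8+ Tc. The accessory chain Il18rap rose most in these cells, to 158, 120, 183 and 104 CPM from 51.4, 60.5, 136 and 56.0 (1.97 times, log2 fold change 0.98, SE 0.12, adjusted p = 1.3e-06), higher in every library, while the highest Cx3cr1- value lay above the lowest 2 Cx3cr1+ values. Il18r1 rose 1.25 times (188.5, 184, 301 and 131 against 107.5, 159, 282 and 117 CPM, adjusted p = 0.019). Il21r fell 1.57 times without overlap, to 88.6, 98.6, 62.3 and 57.2 CPM from 147, 119, 110 and 116 (adjusted p = 2.9e-05), and Il7r fell 1.24 times (89.4, 118, 230 and 81.4 against 107, 166, 251 and 110 CPM, adjusted p = 0.012). Il2ra, Il2rb, Il2rg and Il10ra did not pass, with adjusted p from 0.224 to 0.986. This gave 2 genes higher and 2 lower, where 9.94% of 9731 genes passed, 6.24% higher and 3.7% lower. The calls of Il7r (-0.23, without Havcr2fl/fl;E8icre/+ replicate 2) and Il18r1 (0.14, without Havcr2fl/fl;E8icre/+ replicate 1) were each lost with 1 library left out. For Il7r the call was lost under 7 of 15 other settings, and the log2 fold change was -0.088 with thinned cells. By cluster, Il7r was higher in short-term effector-like CD8+ Tc (mean 422 CPM) than in all CD8+ Tc (mean 153 CPM), in every library. The lower Il7r level in Cx3cr1+ cells thus does not describe that cluster. The summed cycling markers were at 1627 to 2642 CPM in Cx3cr1+ against 844 to 1643 CPM in Cx3cr1- cells, and the erythroid markers at 189 to 2753 CPM against 2610 to 7124 CPM. Their part in these results was not tested.

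Cycling cells, those with a UMI of the proliferation gene Mki67 (488, 239, 128 and 361 CD8+ Tc), had lower levels of 6 of the 8 genes and higher levels of none, in a comparison where 40.9% of 10164 genes passed, 21.5% higher and 19.4% lower. Il7r fell 3.33 times, to 45.6, 44.6, 87.7 and 67.4 CPM from 155, 223, 341 and 132 (SE 0.13 on the log2 scale, adjusted p = 1.2e-09), without overlap. Il18r1 fell 2.24 times (69.2, 71.0, 184 and 69.4 against 160, 216, 349 and 154 CPM, adjusted p = 6.2e-10) and Il18rap 1.99 times (37.4, 43.1, 98.4 and 38.7 against 88.6, 85.6, 179 and 79.9 CPM, adjusted p = 1.3e-08), each in all 4 libraries. Il2rg fell 1.29 times without overlap (adjusted p = 3.3e-05), Il10ra 1.21 times (adjusted p = 0.025) and Il21r 1.13 times (adjusted p = 0.0499, lost under 10 of 15 other settings). Il2rb (786, 487, 568 and 511 against 840, 502, 561 and 630 CPM, adjusted p = 0.469) and Il2ra (adjusted p = 0.881) did not pass. Mki67+ cells were deeper, with medians of 7700, 8062, 9951 and 4551 UMIs against 4215, 5879, 6468 and 2794.5, and with cells thinned to 2000 UMIs each of the 6 genes kept its direction and 4 still passed. Il10ra was no longer called without replicate 1 of either genotype (-0.20 and -0.23). Erythroid markers summed to 537 to 5349 CPM in Mki67+ and 2605 to 6207 CPM in Mki67- cells, and their part was not tested.

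**Figure D4:**
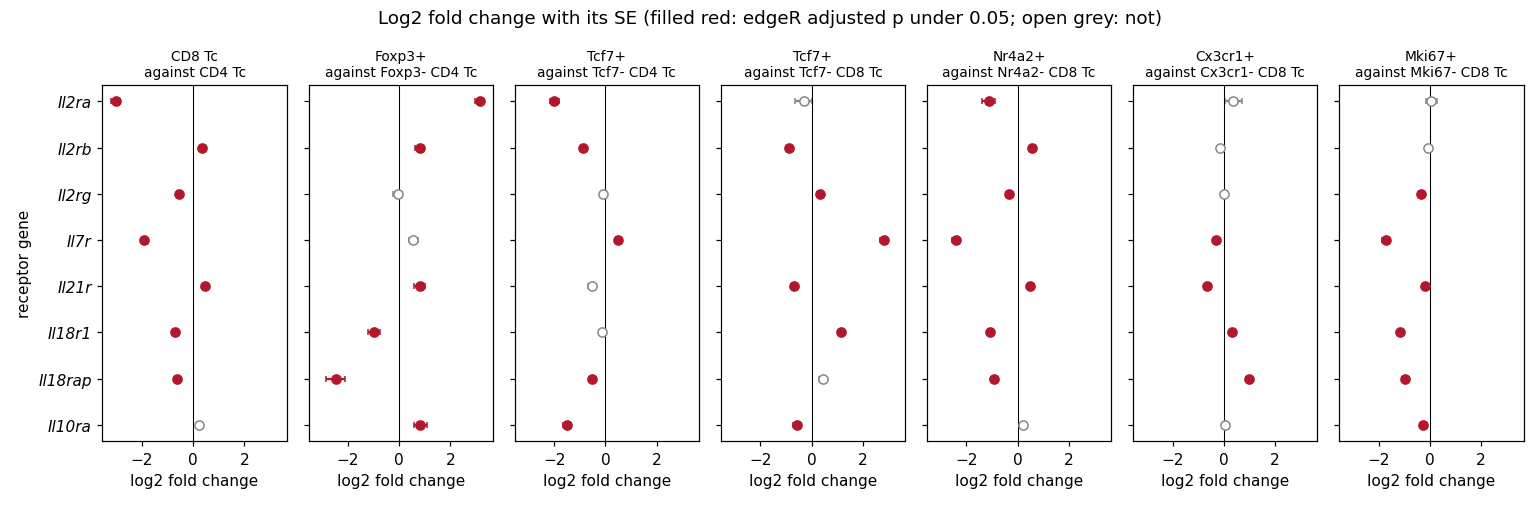
Log2 fold change (x axis, same range in all panels) with its SE (bars) for the 8 receptor genes (y axis) in 7 comparisons of T cell states; filled red points have an edgeR adjusted p under 0.05 and open grey points do not. Il7r lay at 2.82 in the Tcf7 panel and at -2.42 in the Nr4a2 panel of CD8+ Tc, and Il2ra at 3.15 in the Foxp3 panel.

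Among CD4+ Tc, Tcf7+ cells (179, 267, 91 and 92 cells) differed from Tcf7- cells in 5 genes, where 5.51% of 8736 genes passed, 2.52% higher and 2.99% lower. Il2ra fell 3.996 times, to 31.3, 22.8, 12.4 and 18.5 CPM from 103, 94.7, 93.2 and 86.4 (log2 fold change -1.998, SE 0.18, adjusted p = 2.0e-05), and Il10ra 2.83 times, to 36.5, 25.8, 24.8 and 9.23 CPM from 132, 62.1, 65.0 and 41.8 (log2 fold change -1.503, SE 0.17, adjusted p = 0.00011), both without overlap. Il2rb fell 1.81 times without overlap (448, 260, 374 and 215 against 678, 633, 635 and 460 CPM, adjusted p = 0.00033) and Il18rap 1.45 times (adjusted p = 0.020), while Il7r rose 1.42 times (569, 669, 1061 and 489 against 501, 419, 712 and 405 CPM, adjusted p = 0.0040). Il18r1 (adjusted p = 0.533), Il2rg (0.745) and Il21r (0.073) did not pass. The calls of Il7r (0.45) and Il18rap (-0.54) were lost without Havcr2fl/fl replicate 1, and that of Il18rap also without Havcr2fl/fl;E8icre/+ replicate 2 (-0.50) or Havcr2fl/fl replicate 2 (-0.48). Foxp3+ cells are part of this comparison and were not separated in it.

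How often pairs of the genes were read in the same cell was described at 2000 UMIs per cell. Among CD8+ Tc with an Il18r1 UMI, 34.0%, 24.5%, 32.5% and 27.9% also had Il18rap, against 7.62%, 10.3%, 18.5% and 6.72% of those without. In CD4+ Tc the shares were 29.0% to 40.2% against 11.9% to 25.4%, so the IL-18 receptor chains were found together more often in all 4 libraries and both lineages. Il18r1 was likewise found in 45.5% to 59.1% of CD8+ Tc with Il7r and in 14.3% to 34.8% of those without. Il2rb showed the reverse, in 39.2% to 57.7% of CD8+ Tc with Il7r and in 58.8% to 74.6% of those without.

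The 46 listed genes of the same pathways comprised 15 other receptors and subunits, 9 ligands, 15 signal transducers and 7 feedback or target genes. Of all genes tested, 6.78% passed in either direction in the Foxp3 comparison, 14.9% for Tcf7 in CD8+ Tc and 13.9% for Nr4a2. The shares were 9.94% for Cx3cr1, 40.9% (19.4% lower) for Mki67, 24.7% between CD8+ and CD4+ Tc and 5.51% for Tcf7 in CD4+ Tc. In Foxp3+ CD4+ Tc 7 of 35 tested genes rose and 5 fell. Among those that rose were Pim1 (log2 fold change 2.13, adjusted p = 1.3e-09), Socs2 (2.23, adjusted p = 8.8e-07) and Cish (0.99, adjusted p = 0.00055), with Socs3, Crlf2 and the decoy receptor Il1r2. Bcl2 (-3.00, adjusted p = 2.0e-10), a survival gene, fell with Il21, Il6ra, Stat4 and Pim2. The 7 feedback or target genes thus went both ways, with 4 higher (Pim1, Socs2, Cish and Socs3) and 2 lower (Bcl2 and Pim2). In Tcf7+ CD8+ Tc 10 of 39 rose and 6 fell. The receptor chains Il23r (4.59), Il6ra (4.15), Il1r2 (2.07) and Il4ra (1.07) rose with Bcl2 (1.16), Socs1 (1.20) and the ligand Il21 (1.18), whereas Il10 (-2.25), Il12rb1 (-1.03), Cish (-0.96) and Pim1 (-0.62) fell, all as log2 fold changes. In Nr4a2+ CD8+ Tc 5 of 36 rose and 8 fell, with Il10 (0.93) and Il6st (0.91) higher and Il12rb2 (-1.76), Socs2 (-1.29), Socs1 (-0.93), Bcl2 (-0.62) and Cish (-0.39) lower. Cx3cr1+ CD8+ Tc had Jak1 (0.30) and Pim1 (0.24) higher of 35 tested and 7 lower, among them Il10 (-1.52), Socs3 (-0.89), Il12rb1 (-0.80) and Socs1 (-0.68). In Mki67+ cells 0 of 36 rose and 20 fell, including all 7 feedback or target genes, such as Socs2 (-1.10), Socs1 (-1.02) and Bcl2 (-0.94). Against CD4+ Tc, CD8+ Tc had 8 of 39 higher, with Pim2 (0.68) and Il15ra (0.44) among them, and 18 lower, led by Il6ra (-3.26), Il21 (-3.15), Socs2 (-3.12) and the IL-33 receptor Il1rl1 (-2.73). In Tcf7+ CD4+ Tc 1 of 36, Il6ra (2.99), rose and 7 fell, with Il10 (-4.32) the lowest. The median log2 fold change over the listed genes tested lay between -0.36 and 0.18 in these 7 comparisons, that over the 8 receptor genes between -0.62 and 0.67, and that over all genes tested between -0.04 and 0.01.

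The genotype comparison found 0 of the 8 genes changed. With edgeR's quasi-likelihood test, 0 of 8 passed in CD8+ Tc, 0 of 8 in CD4+ Tc and 0 of 7 tested in Tcf7+ CD8+ Tc, where 0.0275% of 10891 genes (0.0184% higher, 0.00918% lower), 0.0103% of 9671 (0.0% higher, 0.0103% lower) and 0.144% of 7620 (0.105% higher, 0.0394% lower) passed. At an unadjusted p under 0.05 the counts were 0, 1 and 1 with edgeR and 1, 1 and 0 with DESeq2, which after adjustment called 0 in each. Over all genes tested with edgeR, 281 of 10891, 304 of 9671 and 465 of 7620 had an unadjusted p under 0.05. In CD8+ Tc, Il18rap had the largest fitted difference (67.6 ± 3.69 CPM in Havcr2fl/fl;E8icre/+ against 106 ± 60.3 in Havcr2fl/fl, SD, n = 2, log2 fold change -0.67, SE 0.33, adjusted p = 0.99993), followed by Il2ra (-0.64), Il18r1 (-0.56) and Il7r (-0.44). These rested on Havcr2fl/fl replicate 1, the library with the fewest cells and the most UMIs per cell. Its IL-18 receptor levels were not the highest in every cluster. Il18rap in short-term effector-like CD8+ Tc was at 324 CPM, against 399 in Havcr2fl/fl;E8icre/+ replicate 1. The library stood apart in some clusters, for example at 471 CPM of Il18r1 in CD8+ cluster 0, where the others were at 224, 263 and 210. Without it the differences were 0.08 for Il18rap, 0.03 for Il2ra, 0.22 for Il18r1 and 0.30 for Il7r, and without Havcr2fl/fl replicate 2 Il18rap was called at -1.17. In each of these fits Havcr2fl/fl is 1 mouse, assumed to vary like the 2 of the other genotype, and in the last it is replicate 1.

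**Figure D5:**
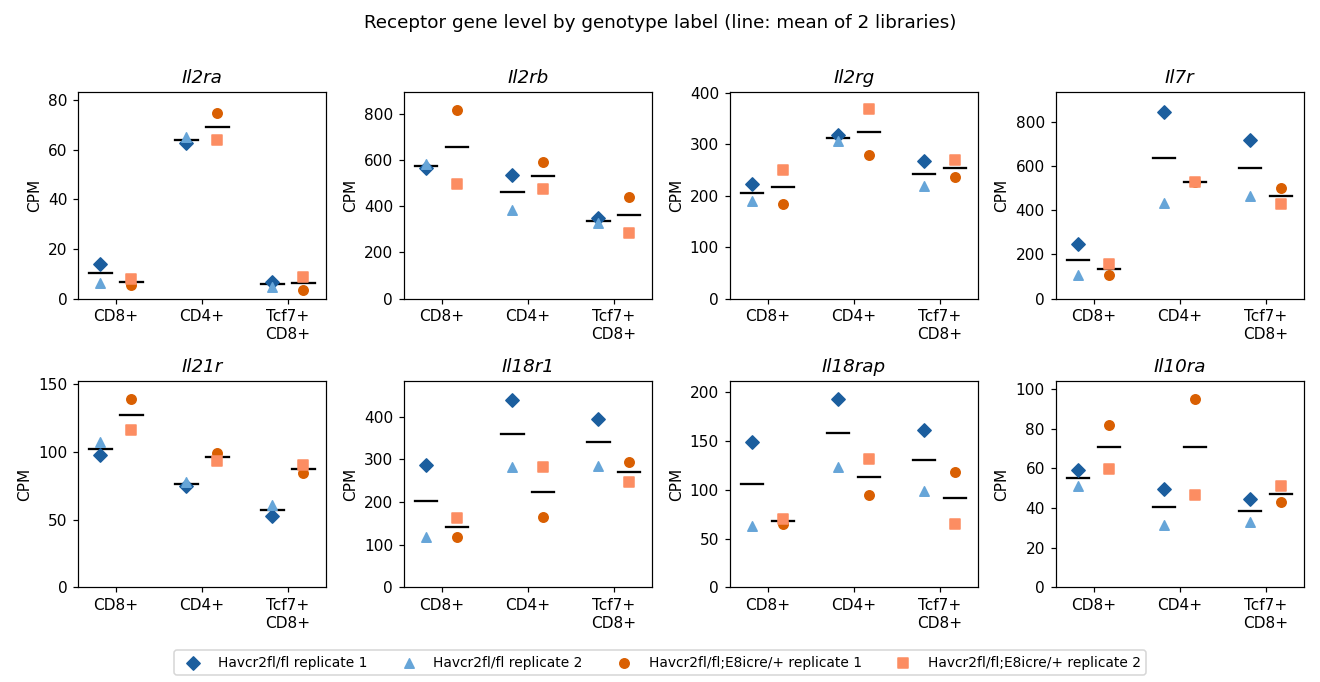
Level of each receptor gene (y axis, CPM, linear from 0) in CD8+ Tc, CD4+ Tc and Tcf7+ CD8+ Tc (x axis), 1 point per library, blue for Havcr2fl/fl and orange for Havcr2fl/fl;E8icre/+, with a line at the mean of 2 libraries. Il21r in Tcf7+ CD8+ Tc was at 84.4 and 90.5 CPM in Havcr2fl/fl;E8icre/+ and at 53.0 and 61.2 CPM in Havcr2fl/fl, the genotypes apart but not past the test.

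Il21r had Havcr2fl/fl;E8icre/+ values above both Havcr2fl/fl values in all 3 populations, although none passed: 128 ± 16.5 against 102 ± 6.83 CPM in CD8+ Tc (log2 fold change 0.28, SE 0.18, adjusted p = 0.99993), 96.1 ± 4.02 against 76.2 ± 2.16 CPM in CD4+ Tc (0.29, SE 0.19, adjusted p = 0.99989) and 87.5 ± 4.29 against 57.1 ± 5.76 CPM in Tcf7+ CD8+ Tc (0.60, SE 0.25, adjusted p = 0.762), each SD with n = 2. The Tcf7+ cells are part of the CD8+ Tc, so these are not separate observations. Il10ra in CD8+ Tc was also apart (82.1 and 59.9 against 59.3 and 51.2 CPM) and did not pass. How many of all genes part the genotypes in this way was not counted. Il18r1 in CD4+ Tc (164 and 283 against 439 and 281 CPM, log2 fold change -0.73, SE 0.31, adjusted p = 0.99989) and Il10ra in CD4+ Tc (94.9 and 46.5 against 49.8 and 31.6 CPM, 0.70, SE 0.34, adjusted p = 0.99989) overlapped between genotypes. Il2rb, Il2rg and Il7r overlapped between genotypes in each of the 3 populations. With 2 mice per genotype, a p that misses the threshold does not show that the genotypes are alike.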

How the data were processed

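Single-cell RNA-Seq libraries (3′ chemistry) of spleen Tc, isolated with a pan-T-cell kit, were available from 4 recipients, 1 library per mouse and 2 per genotype. The files deposited by the authors hold whole-number UMI counts per gene and barcode, not normalized, made per the submitters' processing notes with Cell Ranger 6.1.2 on mm10. Groups came from the labels.

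A barcode passed with 500 or more genes detected, 1000 or more UMIs and no more than 10% of UMIs from mitochondrial genes (11632 passed), Scrublet calls were removed (125, of which 2, 5, 9 and 109 per library), and 11507 cells remained, at 1204 to 4328 per library. Cells were clustered in Seurat 5.3.0 after CCA integration (resolutions 0.7, 0.5 for CD8+ and 0.2 for CD4+ Tc) with R 4.3.3, Python 3.11.15 and scanpy 1.11.5. UMIs were summed per library and state where a profile had at least 10 cells, and tested with edgeR 4.0.16 (TMM, filterByExpr, quasi-likelihood, Benjamini-Hochberg threshold 0.05), with the library as a block between states and none between genotypes; DESeq2 1.42.0 was an alternative. Adjusted p-values come from edgeR unless another tool is named. CPM is the UMIs of a gene divided by all UMIs of the profile, scaled to 1e6. Depth-matched shares used cells thinned to 2000 UMIs, leaving out shallower cells, and share intervals are Wilson 95% intervals for counting error. The test script was checked on simulated counts. A cell without a UMI of a gate gene may still express it. For same-numbered mice of the 2 genotypes, the labels give a shared number and nothing more.

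The 8 genes, the pathway and marker lists and the comparisons were chosen with earlier results of these data known. All 8 genes were named in every comparison, with the 3 genes most alike over clusters (mean of at least 20 CPM). Chosen after values were seen were the limit of 50 cells for ranked clusters, the rule that scores cluster names, the fit of Foxp3 on 3 libraries, the crossed block, the 3 motifs and the 250-base windows. A promoter entry was found for 6 of 8 genes, with none for Il2rb and Il10ra. Some genes are not reported here. The genotype comparison in Foxp3+ CD4+ Tc was not run, since 1 library had 6 such cells.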

Additional observations from a re-analysis of the deposited data

Results flagged for a closer look

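In the Cx3cr1 split of CD8+ Tc, the libraries of the genotypes moved in opposite directions for 2 of the 8 genes, and the difference between genotypes was not tested. All 8 genes were searched for this pattern in every comparison of T cell states, and no other result met it. How many of all genes show it was not counted, so these 2 results are not shown to be unusual. Il2ra, the IL-2 receptor alpha chain, had a mean log2 ratio of Cx3cr1+ over Cx3cr1- cells of -0.593 in the libraries labelled Havcr2fl/fl;E8icre/+ and 0.890 in those labelled Havcr2fl/fl, where its counts in Cx3cr1+ cells were 4 to 27 UMIs per library. Il2rg, the common gamma chain, had mean log2 ratios of 0.0933 and -0.101 in the same order.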

How the results depend on the processing

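Of 79 gene-by-comparison results for the 8 genes, 41 passed the test, 17 of them under every alternative run, and 0 of the 41 changed direction under any. Counts of receptor genes that passed moved by over 1.5 times under few settings, whose cause was not tested. Without the library block 4 passed between CD8+ and CD4+ Tc (7 with it), 3 in the Foxp3 comparison (6), 3 in the Tcf7 comparison of CD4+ Tc (5), 0 in the Cx3cr1 comparison (4), 1 in the Nr4a2 comparison (7) and 3 in the Mki67 comparison (6). With DESeq2 3 passed in the Foxp3 comparison and 2 in the Cx3cr1 comparison, where 2 passed with thinned cells. Under each of these settings the count over all genes in the same comparison also moved by over 1.5 times. Leaving out each library in turn gave 3 to 7 in the Foxp3 comparison (3 without Havcr2fl/fl;E8icre/+ replicate 2), 3 to 5 in the Tcf7 comparison of CD4+ Tc (3 without Havcr2fl/fl replicate 1) and 0 to 1 for genotype in CD8+ Tc (1, Il18rap, without Havcr2fl/fl replicate 2). The level of Il18rap in its highest cluster was 434 CPM with the 8 genes and the pathway list kept in the clustering and 423 CPM at a resolution higher by 0.2. At that resolution, among clusters of at least 50 cells, Il2rg was highest in an unnamed CD4+ cluster of 584 cells (439 ± 15.0 CPM), not in Treg-like cells. Il18r1 was highest in a CD4+ cluster of 257 cells led by Ifitm1 (464 ± 74.0 CPM). It was not above the short-term effector-like CD8+ cluster (457 ± 134 CPM) in every library. Over all genes, the count that passed ran over the alternatives from 1015 to 3113 between CD8+ and CD4+ Tc (2686 as reported), from 253 to 665 for Foxp3 (520), from 682 to 1864 for Tcf7 in CD8+ Tc (1528), from 177 to 677 for Tcf7 in CD4+ Tc (481), from 178 to 1046 for Cx3cr1 (967), from 256 to 1640 for Nr4a2 (1422), from 1272 to 4801 for Mki67 (4152), and for genotype from 0 to 90 (3), 0 to 51 (1) and 4 to 107 (11) in CD8+, CD4+ and Tcf7+ CD8+ Tc.

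Changes of sign were seen only for results that had not passed (38, of which 22 with a library left out). As log2 fold changes, Il2rg in the Foxp3 comparison became 0.00433 with doublets kept, 0.013 without the block and 0.032 with all 4 libraries. In the Cx3cr1 comparison Il2rg became -0.00623 with a lineage gate of 2 UMIs, -0.0230 with a marker gate of 2 UMIs and -0.030 with no filter on low counts. In the Mki67 comparison Il2ra became -0.23 with the strict cell filter, -0.097 with doublets kept and -0.052 with the marker gate of 2 UMIs. Between genotypes, Il2ra in CD4+ Tc became -0.35 with the lineage gate of 2 UMIs, and in Tcf7+ CD8+ Tc Il2rb became -0.0563 and Il18rap 0.20 with thinned cells, and Il2rg -0.0395 with doublets by the expected rate and -0.0030 with the lineage gate.

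With each library left out in turn, the ranges were -0.37 to 0.085 for Il2rg in the Foxp3 comparison, -0.32 to 0.80 for Il2ra, -0.052 to 0.067 for Il2rg and -0.0039 to 0.12 for Il10ra in the Cx3cr1 comparison, and -0.0196 to 0.082 for Il2ra in the Mki67 comparison. For genotype in CD8+ Tc they were -1.12 to 0.026 for Il2ra, -0.19 to 0.43 for Il2rb, -0.25 to 0.29 for Il2rg, -0.93 to 0.30 for Il7r, -1.06 to 0.22 for Il18r1 and -1.17 to 0.075 for Il18rap. In CD4+ Tc they were -0.011 to 0.14 for Il2ra, -0.063 to 0.40 for Il2rb, -0.26 to 0.23 for Il2rg and -0.73 to 0.22 for Il7r, and in Tcf7+ CD8+ Tc -0.21 to 0.31 for Il2rb and -0.11 to 0.19 for Il2rg. Calls lost most often were Il10ra in the Foxp3 comparison (8 of 12 alternatives), Il21r (10 of 15) and Il10ra (5 of 15) in the Mki67 comparison, Il7r (7 of 15) and Il18r1 (5 of 15) in the Cx3cr1 comparison and Il18rap in the Tcf7 comparison of CD4+ Tc (6 of 15).

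Deviations of same-numbered libraries correlated with r = -0.131 in CD8+, -0.0778 in CD4+ and 0.0278 in Tcf7+ CD8+ Tc. With 2 libraries per genotype, crossing the numbers only reverses the sign of r, so these values cannot show whether libraries are paired. With the replicate block 0 of the 8 genes passed between genotypes in each population, and over all genes 0, 0 and 9 passed in place of 3, 1 and 11. Il2rg in CD4+ Tc was -0.013 with this block and -0.00964 with the numbers crossed. The crossed block, chosen after seeing the data, gave 63, 38 and 36 genes. Calls were gained 14 times over results that had not passed: 5 for Il7r in the Foxp3 comparison, 5 for Il18rap in the Tcf7 comparison of CD8+ Tc, 2 for Il10ra between CD8+ and CD4+ Tc, 1 for Il21r in the Tcf7 comparison of CD4+ Tc (-0.54 with no filter on low counts) and 1 for Il18rap between genotypes. Not run, because a profile held under 10 cells, were thinned cells and the lineage and marker gates of 2 UMIs in the Foxp3 comparison, and genotype in Foxp3+ CD4+ Tc. Depth limited Il2ra in CD8+ Tc, at 31 to 56 UMIs per library.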

Other observations

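At a clustering resolution higher by 0.2, Il7r and the IL-18 receptor genes differed in level between 2 CD8+ clusters with short-term effector markers among their leading genes (mean ± SD, n = 4, a description). A short-term effector-like cluster of 237 CD8+ Tc led by Ifitm1, S1pr5 and Klrg1 had Il7r at 694 ± 415 CPM, Il18r1 at 457 ± 134 CPM and Il18rap at 423 ± 110 CPM. A cluster of 194 CD8+ Tc led by Klf2, with Cx3cr1 and S1pr1, was naive or memory-like by its markers (4 of 6, including Lef1) and had Il7r at 115 ± 48.8 CPM, Il18r1 at 299 ± 77.5 CPM and Il18rap at 168 ± 83.4 CPM. The 2 CD8+ clusters with Tcf7 among their leading genes parted in Il2ra. A T_PEX-like cluster of 431 cells (Id3, Xcl1) had Il2ra at 30.05 ± 14.7 CPM (55 UMIs) and Il7r at 563 ± 124 CPM. A cluster of 145 cells had Dapl1 and Ccr7, a gene of naive and central memory Tc. Its Il2ra was at 0.813 ± 1.63 CPM (1 UMI) and its Il7r at 792 ± 299 CPM. CD8+ Tc with a Tcf7 UMI held 2 to 17 Il2ra UMIs per library, so these levels describe clusters and not Tcf7+ cells.

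Among CD4+ Tc at that resolution, an unnamed cluster of 584 cells led by Igfbp7 had Il2ra at 80.7 ± 29.5 CPM, Il10ra at 64.6 ± 30.2 CPM and Il18rap at 229 ± 39.5 CPM, and a precursor memory-like cluster of 308 cells with Ccr7 and Il6ra had Il2ra at 6.58 ± 8.89 CPM, Il10ra at 9.23 ± 7.99 CPM and Il18rap at 69.6 ± 23.0 CPM. A group of 24 CD4+ Tc with Hdc and the receptors Il1rl1 and Il17rb, 21 of them from Havcr2fl/fl;E8icre/+ replicate 1 and 3 from Havcr2fl/fl replicate 2, held 111 UMIs of Il7r, 24 of Il10ra, 23 of Il2ra and 0 of Il18r1.

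Among the 11 clusters outside the T cells, Il18rap was at 129 CPM in a cluster of 248 cells with the highest sum of myeloid markers, at 142 CPM in a cluster of 190 cells with the highest sum of basophil or mast cell markers, and at 0.645 to 9.47 CPM in the rest. Il18r1 was at 41.3 and 40.4 CPM in the same 2 clusters and at 1.27 to 10.9 CPM in the rest. Il10ra was at 113 CPM (36 UMIs) in a cluster of 76 cells.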
